A study of Mus musculus with 4 samples.

Results

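The genes described here are 10 transcripts of the integrated stress response: Atf4, Ddit3, Atf3, Trib3, Ppp1r15a, Asns, Psat1, Chac1, Sesn2 and Ddit4. They come from a list of described targets that was chosen with earlier results of these data known. They were matched by symbol in GENCODE vM21, and all 10 were present among the 52636 genes of each file. RNA was measured by bulk sequencing in cells dissociated from the corpus callosum of Mertk_KO mice fed chow with 0.2% cuprizone for 4 weeks. The design compares AnnexinV-positive cells, described as dying, with AnnexinV-negative cells, described as living, with 2 libraries in each group. Annexin V is a protein that binds phosphatidylserine on the outer face of the cell membrane. Both groups carry the same knockout, tissue and treatment, and no library of wild-type or untreated mice was analysed here. The labels give no age, sex or number of animals, and nothing ties the libraries of a group to separate animals. The p-values therefore measure the spread between these libraries, which may be technical.

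The integrated stress response begins with kinases that phosphorylate the translation initiation factor eIF2 when amino acids, heme or folding capacity in the endoplasmic reticulum run short, or when viral RNA is present. General protein synthesis then slows while the mRNA of the transcription factor ATF4 is translated more efficiently, so that ATF4 activity is not read directly from Atf4 mRNA. ATF4 raises genes of amino acid supply, of redox balance and of feedback on the response, and it induces CHOP, the product of Ddit3. In the cuprizone model this pathway is known from oligodendrocytes, the myelin-forming cells that the toxin kills. Several targets, Atf3 and Ppp1r15a among them, are also induced by other routes, including immediate early signalling.

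Factors of the ATF4 and C/EBP families bind composite elements whose core is spelled TGATGNAA here, and the cyclic AMP response element, bound by CREB and ATF proteins, is spelled TGACGTCA. RefSeq windows of GRCm38.p6 from 250 bases before to 50 bases after each start were found for all 10 genes and searched on both strands. The first spelling was present in 4 of the 10 genes (Atf3, Chac1, Trib3 and Asns), against 4.51% of the 27025 genes with a window. The second was present in Ppp1r15a alone among the 10, against 2.03% of genes. The stretches that hold these letters are shown because they belong to genes that stood at opposite ends of the comparison described below. They run 5′ to 3′ on the strand of the gene with the matched letters in capitals. Among all 32851 windows, 11 held both spellings.
Asns, chr6:7693210-7693239, minus strand, bases -30 to -1: agccacaTGATGAAActtcccgcacgcgtt
Chac1, chr2:119350992-119351091, plus strand, bases -250 to -151: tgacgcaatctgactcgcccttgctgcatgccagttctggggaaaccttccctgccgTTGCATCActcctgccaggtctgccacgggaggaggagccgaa
Trib3, chr2:152344031-152344054, minus strand, bases 7 to 30 after the start: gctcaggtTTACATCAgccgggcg
Atf3, chr1:191183344-191183453, minus strand, bases -120 to -11: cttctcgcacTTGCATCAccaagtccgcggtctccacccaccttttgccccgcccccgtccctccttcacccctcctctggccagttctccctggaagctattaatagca
Ppp1r15a, chr7:45526269-45526328, minus strand, bases -60 to -1: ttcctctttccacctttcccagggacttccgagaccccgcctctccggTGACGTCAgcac
Asns carries the letters on its own strand, and Chac1, Trib3 and Atf3 carry them on the opposite strand. By GENCODE vM21, whose starts differ from RefSeq, the Asns match lies in the 5′ UTR of the first exon of Asns and the other matches lie in no exon. These are matches of letters in a short window, not measured binding, and genes without a match may hold such elements elsewhere.

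Total gene reads, recovered from the deposited values by their step size, came to between 43253956 and 67459677 per library, and Pearson's r of log2 values across genes was 0.979 within the AnnexinV-positive pair and 0.951 within the AnnexinV-negative pair. Cell type markers differed strongly between the groups. All 15 markers of mature oligodendrocytes were lower in AnnexinV-positive cells (median log2 fold change -4.96), with summed RPKM (reads per kilobase of gene, scaled for depth) of 34.9 and 47.0 against 535.2 and 978.1. The markers of homeostatic microglia, which are macrophages resident in the brain, were all higher (14 of 14, median 1.24), with sums of 11020 and 12180 against 4270 and 4766. On the TPM scale, where each library is divided by its sum, only 3 of the 14 microglia markers were higher. The marker with the highest level was Cnp among those of oligodendrocytes (27.1 and 21.4 against 301.7 and 181.3 RPKM) and C1qb, a complement gene, among those of microglia (2693 and 3275 against 1010 and 1037). Markers of precursors (7 of 8 tested), astrocytes (8 of 10), endothelial cells (6 of 8), mural cells or fibroblasts (4 of 4), neurons (2 of 3) and neutrophils (2 of 2) also fell. The 6 neutrophil markers summed to 1.17 and 1.15 RPKM in AnnexinV-positive libraries, against 16.25 and 6.95 in AnnexinV-negative ones. For the 9 neuron markers the sums were 1.97 and 1.89 against 16.01 and 10.7. Markers that reached the minimum of 1 RPKM only in AnnexinV-negative libraries could not have been called higher. Both tested border macrophage markers rose, while the single tested marker of T or NK cells and the 4 of ependymal or choroid plexus cells did not pass, and no monocyte marker reached the minimum. No marker of any list was at 0 in any library. In such bulk samples, fewer cells of a type and less RNA per cell cannot be told apart.

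The test covered the 10927 genes that reached 1 RPKM in at least 2 libraries, which kept 9 of the 10 targets and left out Chac1. Changes are log2 fold changes of RPKM plus 0.1, AnnexinV-positive minus AnnexinV-negative, and a gene was called at an adjusted p under 0.05 (limma, Benjamini-Hochberg over all genes tested). The targets did not move as a block. Atf3 and Ppp1r15a rose, Trib3, Asns, Ddit4 and Ddit3 fell, and Atf4, Psat1 and Sesn2 did not pass. On the deposited scale 2 of 9 were thus higher, where 30.8% of all genes tested were, and 4 of 9 were lower, where 9.26% of all genes were. In either direction 6 of 9 were called, against 40.0% of all genes. The median of the 9 was -0.02, beside 0.45 for all genes tested.

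Since the median change of all genes tested was above 0 on the deposited scale (0.45), each change was also read on 3 other scales. The median of all genes tested was 0.13 with each library centred on its own median, -0.31 on the TPM scale and -0.79 with each library centred on its microglia markers. The decreases of Trib3, Asns, Ddit4 and Ddit3 passed on all 4 scales. The increases of Atf3 and Ppp1r15a passed on the deposited and the median-centred scale (2 higher and 4 lower on each). On the TPM scale 0 of 9 targets were higher and 5 lower, where 1.04% and 19.3% of genes were, and relative to microglia markers 0 were higher and 6 lower, where 0.119% and 58.4% were. The shares of all genes on the median-centred scale were 10.4% higher and 10.8% lower. Counted in either direction, 21.2% of all genes were called on the median-centred scale, 20.3% on the TPM scale and 58.5% relative to microglia markers, beside 6, 5 and 6 of the 9 targets.

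**Figure D1:**
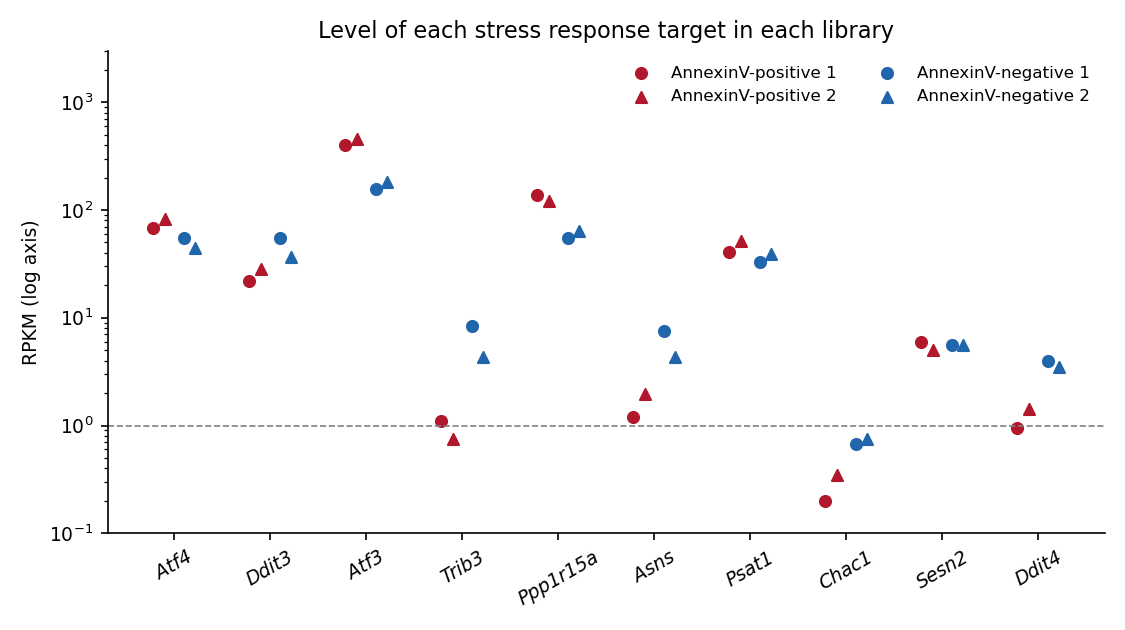
RPKM of each of the 10 targets in each library on a log axis; circles are replicate 1, triangles replicate 2, and the dashed line is the minimum of 1. Atf3 lies highest in every library, and the Trib3, Asns, Ddit4, Ddit3 and Chac1 points of AnnexinV-positive cells lie below both points of AnnexinV-negative cells.

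Atf4 encodes the transcription factor at the centre of the response. Atf4 (ENSMUSG00000042406, chromosome 15, 80255184 to 80257541, plus strand of GRCm38, as for the coordinates that follow; all 10 genes are protein coding) measured 67.7 and 81.9 RPKM in AnnexinV-positive cells, against 54.5 and 44.8 in AnnexinV-negative cells. Both AnnexinV-positive libraries were the higher ones, as for 60.9% of genes tested on the deposited scale. The log2 fold change of 0.59 (SE 0.20, 95% interval 0.12 to 1.06) missed the threshold at a limma adjusted p of 0.0507, turned to -0.19 on the TPM scale and to -0.64 relative to microglia markers. Without AnnexinV-negative replicate 1 Atf4 was called higher, at 0.73 (limma adjusted p 0.0356), as it was with a crossed replicate block, at 0.59 (adjusted p 0.0133).

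Ddit3 encodes CHOP, a transcription factor of the C/EBP family that ATF4 induces and that is known for promoting cell death under lasting stress. Ddit3 (ENSMUSG00000025408, chromosome 10, 127290774 to 127296288, plus strand) measured 22.01 and 28.3 RPKM in AnnexinV-positive cells, against 54.9 and 36.8 in AnnexinV-negative cells. The living fraction thus held more Ddit3 RNA in both libraries. The mean was 25.2 ± 4.45 against 45.8 ± 12.8 (SD, n = 2 each), or -0.85 on the log2 scale with an SE of 0.25 (limma adjusted p 0.0337). Ddit3 rests on single libraries: the limma adjusted p was 0.147 (log2 fold change -0.67) without AnnexinV-positive replicate 1 and 0.0947 (-0.56) without AnnexinV-negative replicate 1. Ddit3 shares 6.1% of its exon bases with a second annotated Ddit3 entry that was not analysed here and 4.0% with Mars on the opposite strand, which was at 11.4, 10.9, 11.6 and 11.7 in the same order of libraries.

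Atf3 encodes a transcription factor that responds early to many stresses and is a target of ATF4. Atf3 (ENSMUSG00000026628, chromosome 1, 191170296 to 191218039, minus strand) measured 404.5 and 450.9 RPKM in AnnexinV-positive cells, against 155.2 and 183.1 in AnnexinV-negative cells. It was the most abundant of the 10 targets per length in every library, and ranked between 46 and 67 among the 10927 genes tested. The groups were far apart compared with their replicates, at 427.7 ± 32.8 against 169.2 ± 19.7 (SD, n = 2 each). The log2 fold change was 1.34 (SE 0.19, limma adjusted p 0.00378). It was 0.56 on the TPM scale (limma adjusted p 0.0708) and 0.11 relative to microglia markers (adjusted p 0.591), where it did not pass.

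Trib3 encodes a pseudokinase that CHOP and ATF4 induce and that restrains both ATF4 and AKT signalling. Trib3 (ENSMUSG00000032715, chromosome 2, 152337422 to 152344032, minus strand) measured 1.10 and 0.745 RPKM in AnnexinV-positive cells, against 8.31 and 4.34 in AnnexinV-negative cells. It had the largest decrease of the 9 tested targets, -2.60 (SE 0.35, 95% interval -3.42 to -1.78, limma adjusted p 0.00304). Its rank among the genes tested went from 2478 and 4620 in living to 9736 and 10234 in dying cells. The decrease passed in all 13 alternative fits.

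Ppp1r15a encodes GADD34, the subunit that directs protein phosphatase 1 to eIF2 and so ends the response. Ppp1r15a (ENSMUSG00000040435, chromosome 7, 45522916 to 45526268, minus strand) measured 136.8 and 121.7 RPKM in AnnexinV-positive cells, against 55.1 and 63.4 in AnnexinV-negative cells. The means were 129.3 ± 10.7 and 59.3 ± 5.85 (SD, n = 2 each). The log2 fold change was 1.13 (SE 0.18, limma adjusted p 0.00535). It was 0.35 as TPM and did not pass, and relative to microglia markers it turned to -0.11. The feedback genes Ppp1r15a and Trib3 thus went in opposite directions on the deposited, median-centred and TPM scales, of which the increase of Ppp1r15a passed on the deposited and median-centred scales.

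Many genes rose on the same scale as Atf3 and Ppp1r15a, among them microglia markers, chaperones of the endoplasmic reticulum and immediate early genes, a group known to be induced by enzymatic dissociation. Of 15 immediate early genes 12 rose and 1 fell on the deposited scale (median 1.08), led by Gadd45b (1.25), Junb (1.28) and Nr4a1 (1.20), as log2 fold changes. On the median-centred scale 11 rose and 1 fell (median 0.77), where 10.4% of all genes tested were higher. As TPM, 0 rose and 2 fell (13.3%, beside 19.3% of all genes tested), with a median of 0.31. Relative to microglia markers the median was -0.15. The heat shock gene Hspa1b was the member that fell (-1.02). The part of dissociation, or of a larger share of microglial RNA, in the levels of Atf3 and Ppp1r15a was not tested.

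Asns encodes asparagine synthetase, a classic target of amino acid shortage. Asns (ENSMUSG00000029752, chromosome 6, 7675169 to 7693254, minus strand) measured 1.19 and 1.96 RPKM in AnnexinV-positive cells, against 7.51 and 4.32 in AnnexinV-negative cells. Both AnnexinV-positive libraries lay below both AnnexinV-negative ones, as for 14.9% of genes tested. The log2 fold change was -1.83 (SE 0.34, limma adjusted p 0.00737), and the decrease passed in all 13 alternative fits.

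Psat1 encodes phosphoserine aminotransferase, which acts between Phgdh and Psph in serine synthesis. Psat1 (ENSMUSG00000024640, chromosome 19, 15904678 to 15947337, minus strand) measured 40.7 and 51.0 RPKM in AnnexinV-positive cells, against 32.7 and 38.8 in AnnexinV-negative cells. Its log2 fold change was 0.36 (SE 0.20, 95% interval -0.12 to 0.83, limma adjusted p 0.184), -0.42 on the TPM scale, and -0.88 relative to microglia markers, where it was called lower. For the neighbouring steps, Psph fell by 1.06 on the log2 scale (limma adjusted p 0.0236), and Phgdh was at -0.05 (adjusted p 0.861, 95% interval -0.52 to 0.43). Differences between these genes were not tested. Psph measured 2.64 and 4.08 RPKM in AnnexinV-positive cells, against 8.28 and 5.86 in AnnexinV-negative cells. Psat1 exceeded Phgdh per length by 4.48 and 4.58 times in AnnexinV-positive and 2.98 and 3.94 times in AnnexinV-negative libraries, a log2 difference of 0.40 that equalled the widest replicate gap.

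Chac1 encodes a glutathione-degrading enzyme downstream of ATF4 and CHOP. Chac1 (ENSMUSG00000027313, chromosome 2, 119351229 to 119354381, plus strand) was the scarcest target and measured 0.198 and 0.348 RPKM in AnnexinV-positive cells, against 0.671 and 0.750 in AnnexinV-negative cells. These levels stand for about 32 and 49 against 132 and 119 reads, so it was detected in every library, though below the minimum for the test. With no minimum applied, the log2 fold change was -1.15 (SE 0.32) and did not pass (limma adjusted p 0.0762).

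Sesn2 encodes sestrin 2, a leucine sensor that restrains the growth kinase complex mTORC1. Sesn2 (ENSMUSG00000028893, chromosome 4, 132492032 to 132510501, minus strand) measured 6.003 and 5.01 RPKM in AnnexinV-positive cells, against 5.60 and 5.54 in AnnexinV-negative cells. It was the only target of the 10 whose groups overlapped. Of the 10, 4 lay higher and 5 lower in both AnnexinV-positive libraries, beside 60.9% and 14.9% of genes tested. The 5 include Chac1, which is not among the genes tested. For Sesn2 the log2 fold change of -0.02 had a 95% interval of -0.48 to 0.43 (limma adjusted p 0.928). It was called lower as TPM, at -0.79 (limma adjusted p 0.0374), and relative to microglia markers at -1.25.

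Ddit4 encodes REDD1, another inhibitor of mTORC1 that stress, hypoxia and glucocorticoids induce. Ddit4 (ENSMUSG00000020108, chromosome 10, 59949669 to 59951834, minus strand) measured 0.945 and 1.42 RPKM in AnnexinV-positive cells, against 3.96 and 3.49 in AnnexinV-negative cells. The means were 1.18 ± 0.334 and 3.72 ± 0.335 (SD, n = 2 each), or -1.60 on the log2 scale with an SE of 0.26 (limma adjusted p 0.00503). The decrease passed in all 13 alternative fits.

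**Figure D2:**
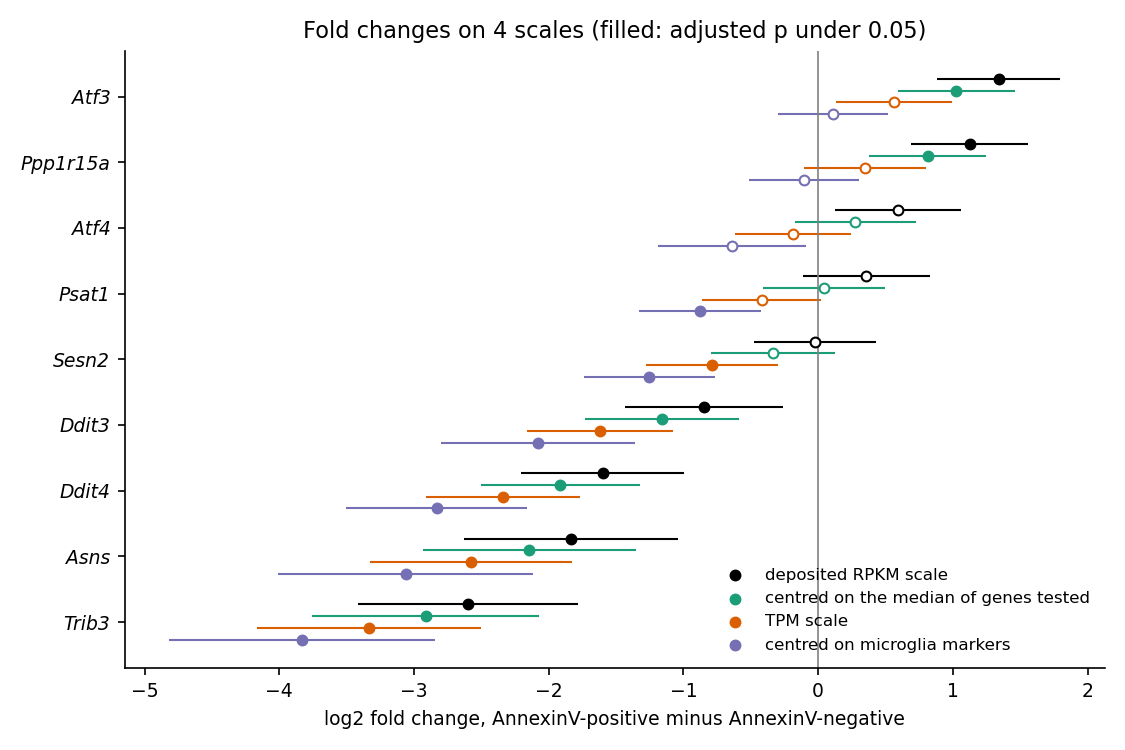
Log2 fold change of the 9 tested targets with its 95% interval (limma) on 4 scales; filled points have an adjusted p under 0.05 and open points do not. Trib3, Asns, Ddit4 and Ddit3 lie below 0 on every scale, while Atf3 and Ppp1r15a are filled on the deposited and median-centred scales, are open on the TPM and microglia-centred scales, and Ppp1r15a crosses to -0.11 on the last.

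A ratio of 2 genes within a library does not depend on how that library was scaled. Relative to Atf4, 6 of the other 9 targets were lower in both AnnexinV-positive libraries (Ddit3, Chac1, Trib3, Asns, Sesn2 and Ddit4), where 36.1% of genes tested were. Chac1, below the minimum, is counted among the 6 but is not among the genes tested. Atf3 and Ppp1r15a were higher, where 16.3% of genes were, and Psat1 overlapped. These ratios are given without a test, because 2 libraries against 2 allow 3 splits and an exact permutation p of 0.333 at best. Trib3 stood at 0.0163 and 0.00911 of the Atf4 level in AnnexinV-positive libraries and at 0.153 and 0.0969 in AnnexinV-negative libraries. Ddit3 was at 0.325 and 0.346 of Atf4 in dying cells, and about level with it, at 1.01 and 0.820, in living cells. Atf3 exceeded Ddit3 by 18.4 and 15.9 times in AnnexinV-positive libraries and by 2.83 and 4.98 times in AnnexinV-negative libraries. The log2 ratio of Atf3 to Ddit3 thus differed by 2.19 between groups, against a widest gap of 0.82 between replicates. For Ppp1r15a to Atf4 the difference of 0.54 was close to the widest replicate gap of 0.48, and so was that of Sesn2 to Atf4 (-0.61, gap 0.54).

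**Figure D3:**
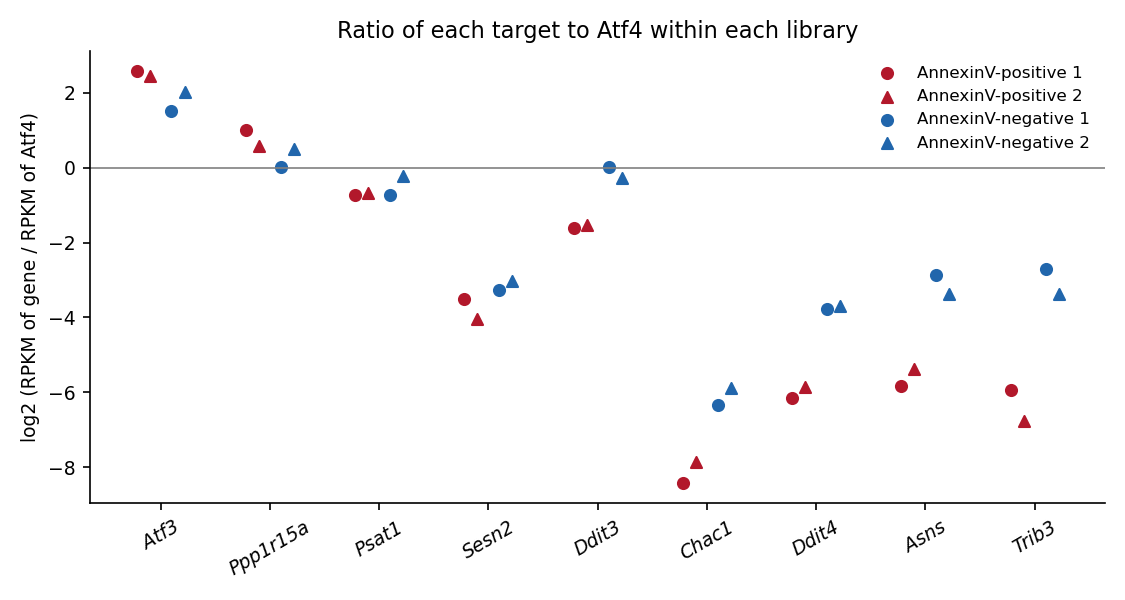
Log2 ratio of the RPKM of each target to that of Atf4 in the same library, in order of the difference between groups; circles are replicate 1 and triangles replicate 2. Trib3, Asns, Ddit4, Chac1 and Ddit3 are separated widely, with AnnexinV-positive libraries lower, whereas the Psat1 points overlap.

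The 2 AnnexinV-negative libraries also differed from each other. Markers of mature oligodendrocytes were higher in replicate 1 than in replicate 2 (median log2 difference 0.97 over 15 markers), while the median of all genes tested differed by -0.01. Trib3, Asns, Ddit3 and Atf4 were also higher in replicate 1, by 0.92, 0.78, 0.58 and 0.28. Ddit4, Chac1 and Sesn2 differed by 0.18, -0.14 and 0.02, and Atf3, Ppp1r15a and Psat1 by -0.24, -0.20 and -0.25, beside -0.25 for the median of microglia markers. Other lists differed as well between these libraries, such as astrocyte markers (0.40) and neutrophil markers (0.76). The widest gap was in ependymal or choroid plexus markers (2.47), with sums of 375.1 and 20.9 RPKM, and these were also higher in replicate 1 of the AnnexinV-positive pair (398.9 and 59.0), with Ttr, which encodes transthyretin, the most abundant (382.7 and 54.2, and 359.7 and 18.4 in AnnexinV-negative cells). Between the AnnexinV-positive libraries, oligodendrocyte markers were also higher in replicate 1 (median 0.41), as were Trib3 (0.51), Sesn2 (0.26) and Ppp1r15a (0.17). Asns (-0.67), Chac1 (-0.59), Ddit4 (-0.54), Ddit3 (-0.36), Psat1 (-0.32), Atf4 (-0.27) and Atf3 (-0.16) were lower there. Each of these is a comparison of single libraries. Between groups, the largest decrease of a target, -2.60 for Trib3, was smaller than that of any of the 15 oligodendrocyte markers, of which Cnp had the smallest at -3.27. The part of oligodendrocyte RNA in the decreases was not tested.

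Relatives of the targets were listed to see whether a family moved together, and 3 of 9 tested rose and 3 fell. These shares of 33.3% each stood beside 30.8% and 9.26% of all genes tested. The increases became 1 without AnnexinV-positive replicate 2, and the decreases became 1 without AnnexinV-positive replicate 1, without AnnexinV-negative replicate 1 or with no filter. Trib1, a sister of Trib3 that is known from myeloid cells, rose by 1.11 (limma adjusted p 0.00519), from 8.45 and 9.64 to 20.1 and 19.0 RPKM, while 0 relatives were called higher on the TPM scale. Trib2 fell by 2.30 on the log2 scale (limma adjusted p 0.00258), from 2.62 and 1.95 to 0.427 and 0.335. Within libraries, Trib3 was at 0.984 and 0.451 of Trib1 in living and at 0.0550 and 0.0392 in dying cells. Sesn1, a p53-responsive sestrin, rose by 0.59 (limma adjusted p 0.0407), and Sesn3 was below the minimum. Ddit4l, the relative of Ddit4, fell by 1.09 on the log2 scale (limma adjusted p 0.0307). Ddit4l and Trib2 reached the minimum only in AnnexinV-negative libraries, so they could not have been called higher. Ppp1r15b, the constitutive partner of the same phosphatase, was at 19.3 and 12.4 against 8.86 and 12.8, and did not pass (0.54, limma adjusted p 0.158). Jdp2, a bZIP factor close to Atf3, rose by 0.97. Chac2 did not pass (-0.53), and Atf5, an ATF4-like factor, was below the minimum at 0.254 to 0.982.

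Upstream of ATF4, 17 genes for the eIF2 kinases, eIF2, its exchange factor eIF2B and related proteins were tested. Of these, 5 rose (29.4%, beside 30.8% of all genes tested) and 0 fell (median 0.44, near the median of all genes). The 5 that rose included the related genes Oma1 (1.06), a mitochondrial protease that relays mitochondrial stress, and Impact (0.75). The others were the kinase gene Eif2ak2 (0.92), which encodes PKR, Eif2s1 (0.58) and Eif2b5 (0.54). With TPM, 0 rose and 1 fell (5.88%, beside 19.3% of all genes tested). The 5 increases became 1 without AnnexinV-positive replicate 1, 1 without AnnexinV-positive replicate 2, 3 without AnnexinV-negative replicate 1, 2 with no filter, 2 with the replicate block and 3 with no trend. The kinase genes Eif2ak3 for PERK (0.44), Eif2ak4 for GCN2 (0.65) and Eif2ak1 for HRI (0.23) did not pass, with limma adjusted p of 0.243, 0.153 and 0.362.

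Other ATF4-dependent genes included those of amino acid synthesis. Of 11 tested, 5 fell and Got1, an aspartate aminotransferase, rose (1.01), with a median of -0.58. Pycr1, a proline synthesis enzyme (-1.30), Gpt2, an alanine aminotransferase (-0.82), Psph, Cbs (-1.50) and Aldh1l2 (-1.16) were the genes that fell. That made 9.09% higher and 45.5% lower on the deposited scale, beside 30.8% and 9.26% of all genes tested. As TPM, 0 were higher and 8 lower (72.7%), where 1.04% and 19.3% of all genes were. The 5 decreases became 1 without AnnexinV-positive replicate 1 (with 1 increase), 2 without AnnexinV-positive replicate 2 (with 0 increases) and 2 with no filter. Among amino acid transporters, Slc6a9 for glycine (-2.43), Slc1a4 for alanine and serine (-1.83) and Slc7a5 (-0.55) fell. Slc1a5 (0.91), Slc38a1 (0.82) and Slc3a2 (0.77) rose. The shares were 33.3% higher and 33.3% lower, beside 30.8% and 9.26% of all genes tested. That split of 3 and 3 among 9 tested became 0 and 5 on the median-centred and on the TPM scale, 1 and 2 without AnnexinV-positive replicate 1, and 0 and 2 without AnnexinV-positive replicate 2. Slc6a9 measured 0.280 and 0.237 RPKM in AnnexinV-positive cells, against 2.47 and 1.34 in AnnexinV-negative cells. Slc6a9 and Pycr1 reached the minimum only in AnnexinV-negative libraries, so they could not have been called higher.

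Cytosolic tRNA synthetases, many of which ATF4 also induces, were called in few cases on the deposited scale. Of 20 tested, Rars (0.70), Vars (0.82) and Qars (0.65) rose and Yars fell (-0.56), with a median of 0.28 on the deposited scale and -0.03 on the median-centred scale. The calls came to 15% higher and 5% lower on the deposited scale, beside 30.8% and 9.26% of all genes tested. As TPM, 7 were lower (35%) and 0 higher, where 19.3% and 1.04% of all genes were. The 3 increases became 0 without either AnnexinV-positive library, 1 without AnnexinV-negative replicate 1, 1 with no filter and 1 with the replicate block. The decrease of Yars passed without AnnexinV-negative replicate 2 but in none of the other 3 fits that left out a library, nor with no filter, no trend or the replicate block. The spelling TGATGNAA was present in 5 of the 13 synthetase genes with a promoter window, and in none of the 15 chaperone genes with one.

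Of other ATF4 or CHOP targets and cofactors, 4 of 14 were higher and 2 lower (median 0.15). These shares of 28.6% and 14.3% stood beside 30.8% and 9.26% of all genes tested. Cebpb, a C/EBP factor of myeloid cells, rose by 1.45 (limma adjusted p 0.00270), from 124.5 and 108.7 to 304.6 and 330.9 RPKM. Sqstm1, an autophagy receptor, rose by 1.16, and Herpud1, which serves degradation at the endoplasmic reticulum, by 1.10. Gadd45a, a growth arrest gene, fell by 1.38 and Vldlr, a lipoprotein receptor, by 1.78 on the log2 scale. Vldlr reached the minimum only in AnnexinV-negative libraries, so it could not have been called higher. As TPM, 1 of the 14 was higher and 4 were lower (7.14% and 28.6%, beside 1.04% and 19.3% of all genes tested). The secreted stress hormone Gdf15 (0.15) and the BH3-only gene Bbc3 (0.10) did not pass, and Fgf21, Stc2 and Tnfrsf10b were below the minimum.

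ATF6 and XBP1 run the neighbouring branches of the unfolded protein response. Of 18 chaperones and sensors, 12 rose and 0 fell on the deposited scale (median 0.73), among them Pdia3 (0.96), Calr (0.93) and Sdf2l1 (1.09), all of protein folding in the endoplasmic reticulum. The shares of 66.7% and 0% stood beside 30.8% and 9.26% of all genes tested. Of all genes, 10.4% were higher and 10.8% lower on the median-centred scale, and 1.04% and 19.3% on the TPM scale. Relative to microglia markers, 0.119% of all genes were higher and 58.4% lower. Calls of the 18 depended on scale: 0 higher and 0 lower when median-centred or as TPM, and 4 lower (22.2%) relative to microglia markers. They also depended on single libraries, since the 12 increases became 2 without AnnexinV-positive replicate 2 and 6 without AnnexinV-negative replicate 1, and 4 with no filter. Whether the branches differ from each other was not tested.

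**Figure D4:**
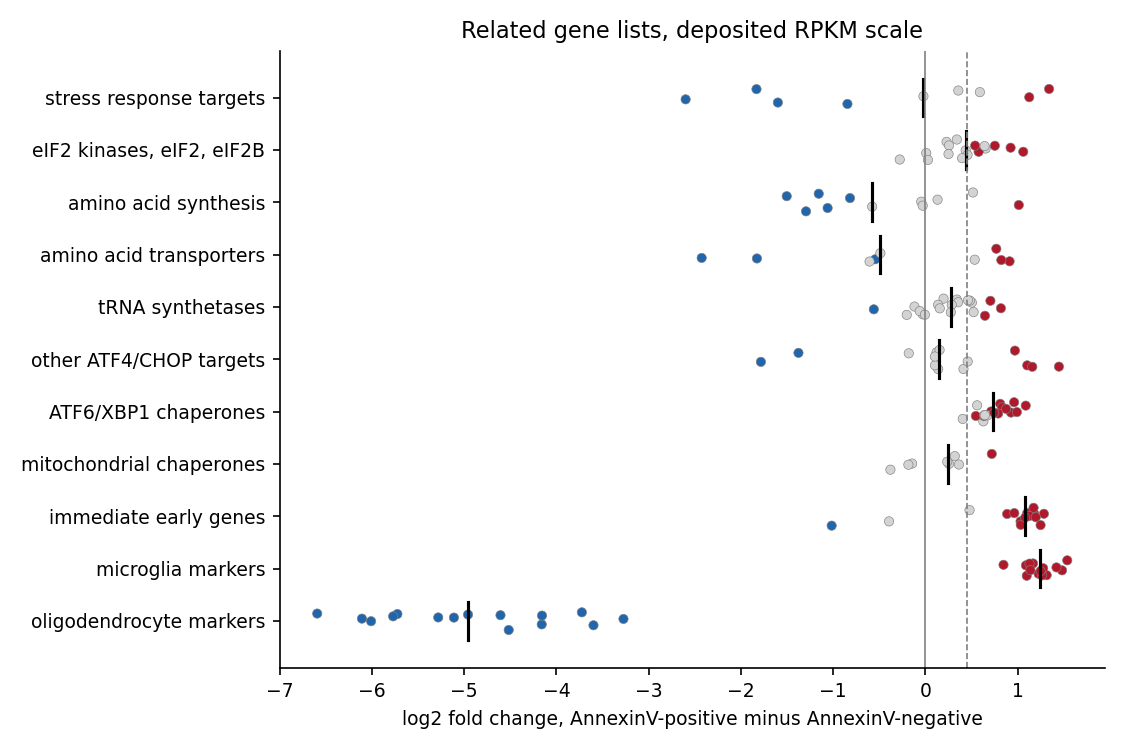
Log2 fold change of each tested gene on the deposited scale by list; red points rose, blue points fell, grey points did not pass, short black lines are list medians, and the dashed line is the median of all genes tested (0.45). The stress response targets spread from -2.60 to 1.34, whereas oligodendrocyte markers lie far to the left and microglia markers to the right on this scale. On the median-centred scale 13 of the 14 microglia markers and 11 of the 15 immediate early genes were higher. On the TPM scale these numbers were 3 and 0.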

How the data were processed

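RNA of 2 AnnexinV-positive and 2 AnnexinV-negative libraries was analysed, grouped by their titles. GSNAP and the mm10 build are named in the submitters' processing notes, while the counter, annotation and filters were not stated. Each file held 1 value per Ensembl gene with no unit named. The deposited values were read as RPKM with 1 scaling factor per library, taken to be a size factor set by the authors. For exonic lengths GENCODE vM21 (GRCm38, the assembly of mm10) was used, which matched 52489 of 52636 genes. Multiplied by these lengths, 79.6% to 83.6% of values under 100 reads came within 0.01 read of whole reads. Such steps show the size of the factor but not how it was derived. The library kit (TruSeq RNA v2, per the labels) keeps no strand, so overlapping and antisense genes cannot be told apart.

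Values were taken as log2(RPKM + 0.1), and the groups were compared with limma 3.58.1 (R 4.3.3, trend on, no covariate) over the 10927 genes that reached 1 RPKM in at least 2 libraries. Adjusted p-values are Benjamini-Hochberg over these genes. A gene that reached 1 RPKM in both libraries of a single group and in none of the other could be called higher in that group alone. Fold changes understate the change of low genes. The steps were tested on simulated data. Alternatives were other pseudocounts (1 and 0.01), no filter, 3 other scales, no trend, a replicate block and leaving out each library with the genes tested held. The targets and lists were chosen with earlier results of these data known. The text names all targets, all their relatives, and the 3 genes of each other pathway or context list with the smallest p. Of the mature oligodendrocyte, microglia and ependymal or choroid plexus marker lists, the gene with the highest mean level is named. Further names that complete a small count (Eif2s1, Eif2b5, Eif2ak1, Eif2ak3, Eif2ak4, Psph, Cbs, Aldh1l2, Slc7a5, Slc1a5, Slc38a1, Yars, Herpud1, Vldlr, Hspa1b, Gdf15, Bbc3, Fgf21, Stc2, Tnfrsf10b, Egln3, Mars) were chosen after their values were seen.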

Additional observations from a re-analysis of the deposited data

How the results depend on the processing

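Under the 13 alternatives, Trib3, Asns and Ddit4 were called lower in all, Ddit3 in 10, and Atf3 and Ppp1r15a higher in 11 each. The number of targets called higher, 2, went to 0 on the TPM scale and to 0 relative to microglia markers, and the number called lower, 4, ranged from 3 to 6 (3 with no filter, where Ddit3 was lost). Leaving out single libraries gave 2 to 3 higher and 3 to 4 lower targets. Signs turned for Atf4 (-0.19 on the TPM scale, -0.64 relative to microglia markers), Psat1 (-0.42 and -0.88 on the same scales), Ppp1r15a (-0.11 relative to microglia markers) and Sesn2 (-0.15 to 0.11 when single libraries were left out, the lowest without AnnexinV-positive replicate 1 and the highest without AnnexinV-positive replicate 2). Of the 103 tested genes of the pathway lists together, 31 were higher and 13 lower. These shares of 30.1% and 12.6% stood beside 30.8% and 9.26% of all genes tested. The counts were 15 and 7 with no filter, where more genes were tested. On the median-centred scale they were 6 and 16 (5.83% and 15.5%, beside 10.4% and 10.8% of all genes). On the TPM scale they were 1 and 30 (0.971% and 29.1%, beside 1.04% and 19.3%). Relative to microglia markers they were 0 and 68 (0% and 66%, beside 0.119% and 58.4%). Leaving out single libraries gave 7 to 35 higher and 6 to 12 lower, with 16 and 6 without AnnexinV-positive replicate 1, 7 and 7 without AnnexinV-positive replicate 2, and 20 higher without AnnexinV-negative replicate 1. The cause of these moves was not tested beyond what each scale does by construction. Across all genes, same-numbered libraries did not deviate together (r = -0.215), although ependymal or choroid plexus markers were higher in replicate 1 of both groups (median log2 difference 1.29 and 2.47). The numbers were not treated as pairs: the replicate block gave 2 higher and 4 lower targets and 21 and 11 pathway genes. The crossed block, added after seeing the data, gave 3 and 4 targets, with Atf4 the added one, and 43 and 16 pathway genes. Chac1, with 32 to 132 reads, is the target that depth limits most.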

Other observations

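Lists of other routes that can act on some of the targets are given as values. Among all genes tested, 30.8% were higher and 9.26% lower on the deposited scale, and 1.04% and 19.3% on the TPM scale. Of 8 tested hypoxia targets 4 rose and 1 fell (median 0.55), including Hk2, a hexokinase (1.14), Egln3, a prolyl hydroxylase (1.10), and Pdk1, a kinase that restrains pyruvate dehydrogenase (1.05). The 4 increases became 2 without AnnexinV-positive replicate 1, without AnnexinV-positive replicate 2 or with no filter. Ndrg1, which is also an oligodendrocyte gene, fell by 5.20 on the log2 scale, and on the TPM scale 0 rose and 3 fell. Of 8 tested glucocorticoid targets 3 rose and 0 fell (median 0.73), Errfi1 (1.07), Per1 (0.98) and Sgk1 (0.77), with 0 higher and 0 lower on the TPM scale. The 3 increases became 1 without either AnnexinV-positive library. Ddit4, which hypoxia and glucocorticoids are known to induce, fell by 1.60 in the same libraries.

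Of 8 mitochondrial chaperones and proteases, Trap1, a mitochondrial HSP90, rose (0.72) and 0 fell (median 0.25). Yme1l1 (0.36) and Clpp (-0.38), both mitochondrial proteases, had the next smallest p and did not pass (limma adjusted p 0.153 and 0.273). The share that rose, 12.5%, stood beside 30.8% of all genes tested. On the TPM scale 0 were higher and 3 lower (37.5%, beside 19.3% of all genes). The increase of Trap1 passed without AnnexinV-negative replicate 2 but in none of the other 3 fits that left out a library, nor with the replicate block, no filter or any of the 3 other scales.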
